A study of Mus musculus with 1094 samples.

Results

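Early basal progenitors were the 117 cells of the 2 earliest basal progenitor (BP) libraries, 45 cells at embryonic day E14.5 and 72 cells at E12.5, out of 1094 single cells in 17 libraries of the mouse dorsal cerebral cortex. They were taken by their sample titles, with no choice on measured values. All cells came from C57Bl/6 mice labelled wild-type in genotype that carried a transgenic reporter. Cells labelled BP (E12.5 to P0) and newborn neuron (NBN, E16.5 to P3) were GFP-positive cells of Tbr2::GFP animals, and cells labelled neural stem cell (NSC, E10.5 to P1) were GFP-positive cells of Hes5::GFP animals. The cortices were micro-dissected and dissociated with papain, and the sorted cells were captured on the Fluidigm C1 system for full-length cDNA and sequencing. The labels name no animal or litter, so each stage was 1 library and its cells shared their source. No test between E14.5 and E12.5 was possible, and genes are called higher or lower by size only.

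Basal progenitors, also called intermediate progenitors, arise from radial glia in the ventricular zone and divide away from the ventricle to give pairs of neurons. They are marked by Eomes (Tbr2), a T-box transcription factor, and follow the proneural factor Neurog2, which induces Rnd2, a small GTPase of migration, and the helix-loop-helix genes Nhlh1 and Nhlh2. In the earliest cortex the Tbr2 lineage also includes Cajal-Retzius cells, neurons of the marginal zone that secrete reelin (Reln) and form largely at the borders of the cortical sheet, and GFP outlasts the transcript of its reporter gene in daughter neurons.

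Nhlh1 and Nhlh2 are the pair of markers in which both members were lower at E14.5 and in which a Neurog2-type E-box lay just before the start site, so their upstream sequences are shown here. Both stretches run 5′ to 3′ on the gene's own strand from 250 to 51 bases before the RefSeq start (GRCm38.p6), at chr1:172057647-172057846 on the minus strand for Nhlh1 and chr3:102009895-102010094 on the plus strand for Nhlh2, and capitals mark the motif CAGATG.
Nhlh1: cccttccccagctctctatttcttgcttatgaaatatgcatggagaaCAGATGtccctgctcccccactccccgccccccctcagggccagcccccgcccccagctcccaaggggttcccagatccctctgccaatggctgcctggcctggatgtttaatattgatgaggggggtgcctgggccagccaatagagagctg
Nhlh2: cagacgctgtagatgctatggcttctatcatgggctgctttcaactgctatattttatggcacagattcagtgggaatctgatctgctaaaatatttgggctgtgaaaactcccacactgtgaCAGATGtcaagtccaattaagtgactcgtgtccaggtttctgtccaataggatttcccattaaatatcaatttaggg
The motif began 203 bases before the start of Nhlh1 and 127 bases before that of Nhlh2, counted from the start in the promoter record. The gene record of Nhlh2 begins earlier, at chr3:102010111, so the motif lies closer to that start. CAGATG or its reverse complement CATCTG was present in the same 200 bases of 3927 of 32851 promoters (12.0%). Of the 21 basal progenitor and Cajal-Retzius list genes with a promoter on record, 3 held it, a share near that of all promoters. The third was Elavl4, an RNA-binding protein of neurons, in 1 of its 4 promoters. A match is a description of the letters and not of a bound site.

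Depth could not be read from the deposited values, which are TPM, a length-corrected share of each cell's transcripts. Genes detected (at least 1 TPM) per cell, a stand-in for it, had a median of 5500 (4160 to 7247) at E14.5 and 5011 (2903 to 6362) at E12.5, and every cell of both stages passed the minimum of 500 genes. The labels call all cells female. At E14.5, 37 of 45 cells held a Y-linked transcript at 10 TPM or more (the level meant throughout by at 10 TPM) and no Xist, 0 held Xist, and 8 held neither. At E12.5, 46 of 72 cells held a Y-linked transcript alone, 15 held Xist alone, 3 held both and 8 held neither. The sex labels therefore did not match most cells, and both stages contained male cells, so the stage differences were also computed within the 37 and 46 cells with a Y-linked transcript alone. Of the 80 named genes past the size rule, which were partly picked for size, 76 kept their side of it there. Of all 1742 genes past it, 70.9% did. Markers of the other cell types were scarce: no cell of either stage held 3 markers of microglia, endothelium, mural cells, meninges, choroid plexus or erythroid cells at 10 TPM, and none of those genes reached the level needed to be compared. Interneuron markers reached 3 in 0 of 45 cells at E14.5 and 2 of 72 at E12.5. Of these, cell 33 held Dlx2 at 340.9 TPM and Dlx5 at 291.0 TPM together with Eomes at 2098 TPM, and cell 54 held Dlx5 at 749.1 TPM and Gad2 at 189.5 TPM with Eomes at 0.

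The defining markers were all present, in different shares of the cells. Eomes, at chr9:118478186-118486132, ranged over cells from 0 through a median of 1.29 to 1235 TPM at E14.5, and from 0 through a median of 128 to 2098 TPM at E12.5. Its mean was 130 TPM at E14.5 and 364 TPM at E12.5, a difference of -1.48 on the log2(mean TPM + 1) scale used throughout for stage differences. Eomes was at 10 TPM or more in 16 of 45 cells at E14.5 (35.6%, exact 95% interval 21.9 to 51.2) and in 48 of 72 cells at E12.5 (66.7%, 54.6 to 77.3). The 2 stages overlapped cell by cell, but most E14.5 cells sorted by the Eomes reporter held little Eomes transcript. Intervals of shares cover counting error only and not the spread between animals.

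Neurog2, the proneural factor upstream of Eomes, averaged 11.0 TPM at E14.5 and 29.4 TPM at E12.5 (difference -1.34) and was at 10 TPM in 4 of 45 cells at E14.5 and 16 of 72 at E12.5. Nhlh1 averaged 36.0 TPM at E14.5 and 81.0 TPM at E12.5 (difference -1.15), with 17 of 45 cells at E14.5 and 36 of 72 at E12.5 at 10 TPM. Within the cells with a Y-linked transcript alone, the Nhlh1 difference was -0.53, short of the size rule. Rnd2 was level: its mean was 725 TPM at E14.5 and 680 TPM at E12.5 (difference 0.09), with a median of 159.6 TPM at E14.5 and 261.4 TPM at E12.5. Rnd2 was at 10 TPM in 26 of 45 cells at E14.5 and in 50 of 72 at E12.5. Reln, the secreted ligand of Cajal-Retzius cells, averaged 4.20 TPM at E14.5 and 66.7 TPM at E12.5, with a median of 0 in both. The highest cell held 92.99 TPM at E14.5 and 1203 TPM at E12.5, so the difference lay in a minority of cells.

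**Figure D1:**
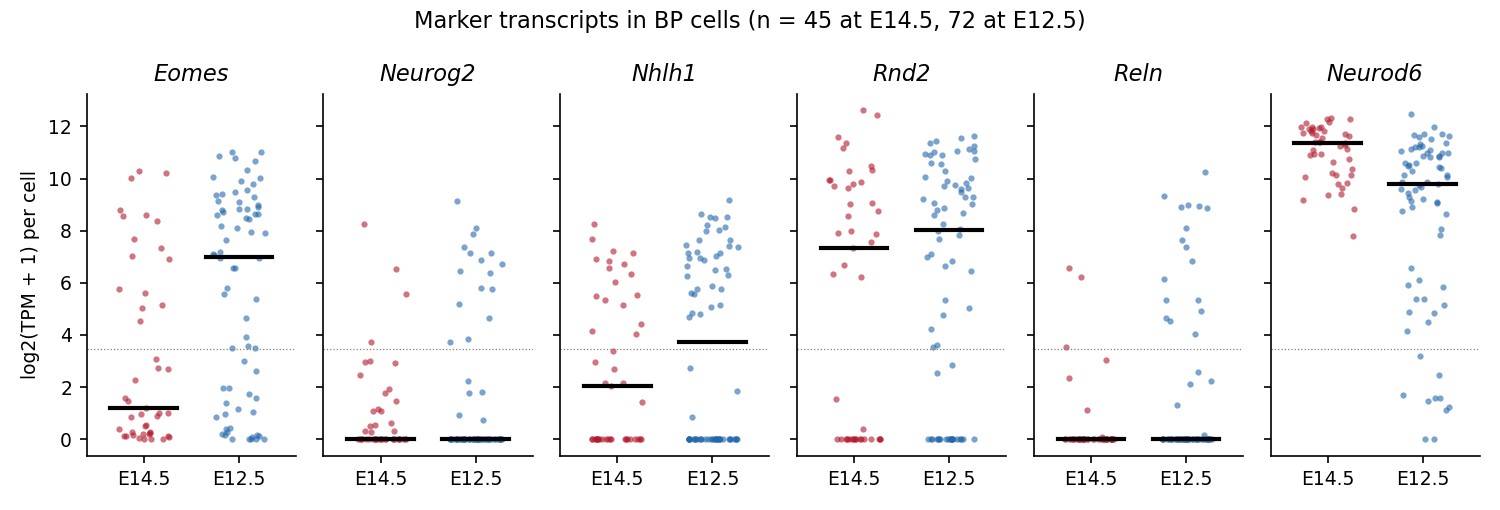
Each point is 1 cell of the BP E14.5 (red, left, 45 cells) or BP E12.5 (blue, right, 72 cells) library, the y axis is log2(TPM + 1), bars are medians, and the dotted line is 10 TPM. Eomes is at 10 TPM or more in 16 of 45 cells at E14.5 and 48 of 72 at E12.5, while Neurod6 is above the line in all 45 cells at E14.5 and in 62 of 72 at E12.5.

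Across the genome, 7714 genes were measured, meaning a mean of 10 TPM and at least 20% of cells at 1 TPM in either stage. Of these, 847 were 2-fold or more higher at E14.5 (11%) and 895 were 2-fold or more lower (11.6%), with a median difference of -0.01. These shares are the background for the gene lists. Because a gene passes the filter through the stage where it is high, counts over the measured members describe them and were not tested.

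The 12 largest differences toward E14.5 were led by Ndrg1, with a mean of 94.0 TPM at E14.5, where 12 of 45 cells held it at 10 TPM; it was listed at 0 in all 72 cells at E12.5. Alcam, a cell adhesion molecule of growing axons, ranged up to 1467 TPM with a median of 41.7 TPM at E14.5 and up to 63.4 TPM with a median of 0.0142 TPM at E12.5. It was at 10 TPM in 28 of 45 cells at E14.5 and 1 of 72 at E12.5 (difference 6.24). Dab1, the adaptor through which neurons receive the reelin signal, averaged 118 TPM at E14.5 and 3.58 TPM at E12.5, with 27 of 45 cells at E14.5 and 8 of 72 at E12.5 at 10 TPM (difference 4.70). The adaptor Sla, the LIM-only factor Lmo1, the potassium channel gene Kcnt2, the sulfotransferase Chst1, the annexin Anxa6, the COPII coat gene Sec24d, the retinaldehyde-binding gene Rlbp1, the metalloprotease Adamts18 and Nsmaf made up the rest, from 4.23 for Kcnt2 to 6.46 for Sla. Each of these was at 10 TPM in 6 to 15 of the 45 cells at E14.5 and in 0 to 3 of the 72 cells at E12.5.

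The 12 largest differences toward E12.5 were led by Ebf2, a factor of Cajal-Retzius and other early-born neurons, with a mean of 0.122 TPM at E14.5 and 65.9 TPM at E12.5 (difference -5.90). No E14.5 cell reached 10 TPM of Ebf2, the highest holding 5.50 TPM, while 23 of 72 E12.5 cells did and the highest held 770.4 TPM. Its relative Ebf1 averaged 1.78 TPM at E14.5 and 113 TPM at E12.5, with 1 of 45 cells at E14.5 and 21 of 72 at E12.5 at 10 TPM (difference -5.35). Ebf1 stayed at -5.22 without the Cajal-Retzius marker cells described below, and Ebf2 at -5.19. Some genes of replication and mitosis were also among them: Cdk1, the mitotic kinase, at 0.933 TPM in E14.5 cells and 78.2 TPM in E12.5 cells (difference -5.36), Mcm2, a subunit of the replicative helicase, with 0.796 TPM at E14.5 and 66.8 TPM at E12.5 (difference -5.24), and the mitotic kinesin Kif20b at 0.409 TPM at E14.5 and 33.1 TPM at E12.5 (difference -4.60). Mroh1, Dph7, Ide, Tmem163, Hsdl2, Rasgrp1 and Sirt4 completed the list, each at 10 TPM in 0 to 2 of 45 cells at E14.5 and in 12 to 18 of 72 cells at E12.5.

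Of the basal progenitor list, 16 of 19 genes were measured. At E14.5, 1 was 2-fold or more higher and 7 were lower, with a median difference of -0.82, against -0.01 over all measured genes. Dll1, the Notch ligand of committing progenitors, averaged 22.7 TPM at E14.5 and 82.2 TPM at E12.5 (difference -1.81), and Mfng, which modifies Notch, averaged 55.3 TPM at E14.5 and 150 TPM at E12.5 (difference -1.42). Mfap4 averaged 65.5 TPM at E14.5 and 258 TPM at E12.5 (difference -1.96), and Btg2, an antiproliferative factor of neurogenic divisions, averaged 99.1 TPM at E14.5 and 212 TPM at E12.5 (difference -1.09). Insm1, a zinc-finger factor needed for basal progenitor formation, ran the other way, at 26.6 TPM in E14.5 cells and 8.52 TPM in E12.5 cells (difference 1.54). Gadd45g, Hes6, Sstr2, Heg1 and Rprm lay within 0.4 log2 units of 0. Among only the cells with Eomes at 10 TPM, 16 at E14.5 and 48 at E12.5, the list's median was -0.28, with 1 gene past the rule each way. Dll1 then differed by -0.27 and Neurog2 by -0.29. Of all 7310 genes measured in these Eomes-positive cells, 1068 were 2-fold or more higher and 1533 lower, with a median of -0.06. Those counts are the background for list counts in Eomes-positive cells, here and below.

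Neurod6, a helix-loop-helix gene of postmitotic excitatory neurons, was at 10 TPM in all 45 cells at E14.5 (100%, exact 95% interval 92.1 to 100) and in 62 of 72 at E12.5 (86.1%, 75.9 to 93.1). Its lowest, median and highest cells were at 221.2, 2656 and 5141 TPM at E14.5, against 0, 874.1 and 5652 TPM at E12.5 (difference of means 1.09). Cells with Neurod6 but without Eomes at 10 TPM were 29 of 45 at E14.5 (64.4%, 48.8 to 78.1) and 19 of 72 at E12.5 (26.4%, 16.7 to 38.1). At E12.5, 5 of 72 cells held Eomes without Neurod6 and 5 held neither; at E14.5 there were 0 of 45 of each, which allows a share of up to 6.67%. The Neurod6 transcript was not particular to the BP sort: it was also at 10 TPM in 46 of 66 NSC E13.5 cells and 80 of 86 NSC E15.5 cells.

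**Figure D2:**
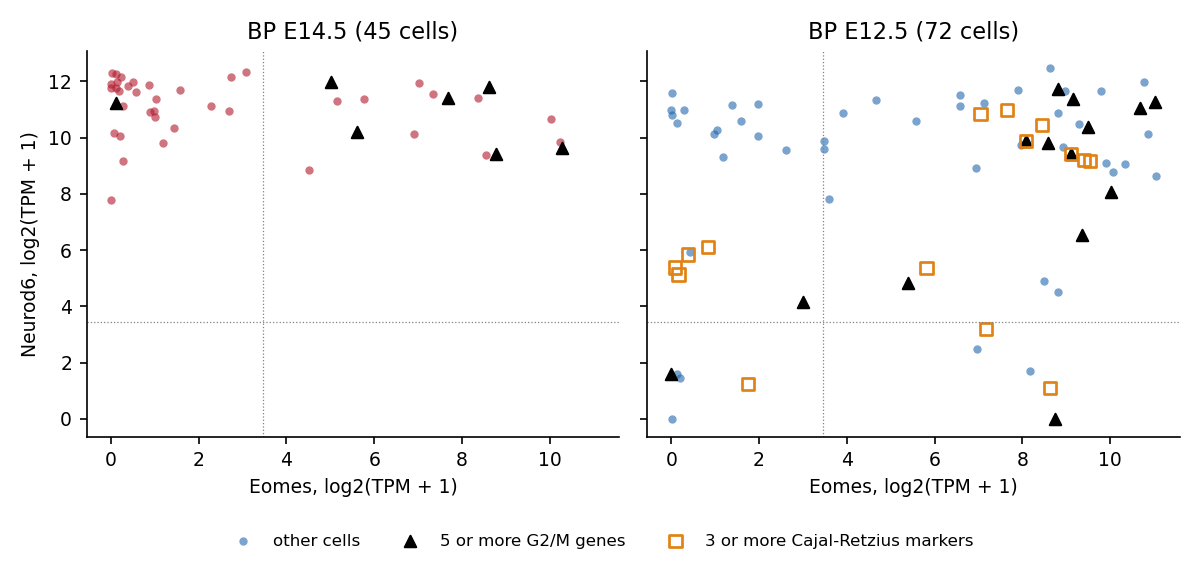
Each point is 1 cell, with Eomes on the x axis and Neurod6 on the y axis, both as log2(TPM + 1), for BP E14.5 (left) and BP E12.5 (right); dotted lines are 10 TPM, triangles hold 5 or more G2/M genes and open squares 3 or more Cajal-Retzius markers. All 45 E14.5 cells lie above the Neurod6 line and 29 of them left of the Eomes line, while 10 E12.5 cells lie below the Neurod6 line.

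The 14 newborn neuron genes were all measured, and 2 were 2-fold or more higher at E14.5 and 0 lower, with a median of 0.46; the share of higher genes was near that of all measured genes. Among Eomes-positive cells 0 were higher and 2 lower, with a median of -0.05, against 1068 higher and 1533 lower of all 7310 genes measured there. Mapt, the microtubule protein tau, averaged 293 TPM at E14.5 and 98.0 TPM at E12.5 (difference 1.57). The pan-neuronal genes were near level: Tubb3 averaged 4263 TPM at E14.5 and 5282 TPM at E12.5, and Dcx averaged 516 TPM at E14.5 and 522 TPM at E12.5. Most cells of both stages therefore held neuronal cytoskeletal transcripts, with Dcx at 10 TPM in 44 of 45 cells at E14.5 and 68 of 72 at E12.5.

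Of 7 measured deep layer genes, 4 were higher at E14.5 and 1 lower, with a median of 1.21. Among Eomes-positive cells 1 was higher and 1 lower, with a median of 0.43, and Bcl11b differed by 0.81. Bcl11b (Ctip2), of subcortically projecting neurons, averaged 119 TPM at E14.5 and 51.2 TPM at E12.5 (difference 1.21) and was at 10 TPM in 40 of 45 cells at E14.5 and 46 of 72 at E12.5. Fezf2, which specifies those neurons, averaged 117 TPM at E14.5 and 46.6 TPM at E12.5 (difference 1.31), and Sox5 averaged 255 TPM at E14.5 and 87.9 TPM at E12.5 (difference 1.53). Foxp2 was the deep layer gene below the rule, at 61.5 TPM in E14.5 cells and 126 TPM in E12.5 cells (difference -1.02). Tbr1, the T-box factor of deep layer neurons that follows Eomes in the lineage, lay within the size rule, at 133 TPM at E14.5 and 95.6 TPM at E12.5 (difference 0.47).

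Of 9 measured upper layer genes, 5 were higher at E14.5 and 1 lower, with a median of 1.38, and among Eomes-positive cells 5 were higher and 0 lower. Cux2, a homeobox gene of upper layer neurons, averaged 34.3 TPM at E14.5 and 12.6 TPM at E12.5 (difference 1.38). Mef2c averaged 126 TPM at E14.5 and 27.1 TPM at E12.5 (difference 2.18), and Rorb, of layer 4 neurons, averaged 31.9 TPM at E14.5 and 3.38 TPM at E12.5, with 6 of 45 cells at E14.5 and 2 of 72 at E12.5 at 10 TPM. Pou3f2 (Brn2) averaged 33.5 TPM at E14.5 and 80.0 TPM at E12.5 (difference -1.23). Within Eomes-positive cells Sox5 differed by 0.18, Pou3f2 by -0.01 and Rorb by -0.18, which is the other sign.

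The nuclear factor I genes, transcription factors that accompany the maturation of cortical progenitors, formed a graded group. Nfix averaged 449 TPM at E14.5 and 96.8 TPM at E12.5 (difference 2.20) and was at 10 TPM in 38 of 45 cells (84.4%, 70.5 to 93.5) and 21 of 72 cells (29.2%, 19.0 to 41.1). Nfib averaged 2130 TPM at E14.5 and 1055 TPM at E12.5 (difference 1.01), and Nfia averaged 788 TPM at E14.5 and 433 TPM at E12.5 (difference 0.86). Crabp2, a retinoic acid binding protein of early progenitors, averaged 57.9 TPM at E14.5 and 372 TPM at E12.5 (difference -2.66), with 7 of 45 cells at E14.5 and 43 of 72 at E12.5 at 10 TPM. The other 4 measured genes of the early stem cell list lay within the size rule.

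Of 11 measured patterning genes, 1 was higher and 5 were lower at E14.5. Lhx9, of the medial and hippocampal cortex and of Cajal-Retzius cells, averaged 22.7 TPM at E14.5 and 140 TPM at E12.5 (difference -2.57), with 12 of 45 cells at E14.5 and 45 of 72 at E12.5 at 10 TPM. Lhx2, Pax6, Nr2f2 and Lef1 were the others below the rule, from -1.90 for Nr2f2 to -1.52 for Lef1. On the mean over cells of log2(TPM + 1), Lhx2 and Nr2f2 each differed by -1.39, Lef1 by -0.48 and Pax6 by -0.07. Among 13 migration and guidance genes, 3 were higher at E14.5, Dab1, Robo1 and Unc5d, and 1 was lower, the semaphorin coreceptor Nrp2 (difference -1.50). Robo1 differed by 1.18, but by -0.53 among Eomes-positive cells. Of 4 measured Notch pathway genes 0 were higher and 2 lower, Dll1 and Mfng, and of 2 measured subplate genes 1 was lower, Nr4a2 (difference -1.37; 0.44 without dividing cells). Of 6 measured immediate early and stress genes, 1 was higher at E14.5, Fos, at 97.6 TPM in E14.5 cells and 30.6 TPM in E12.5 cells.

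**Figure D3:**
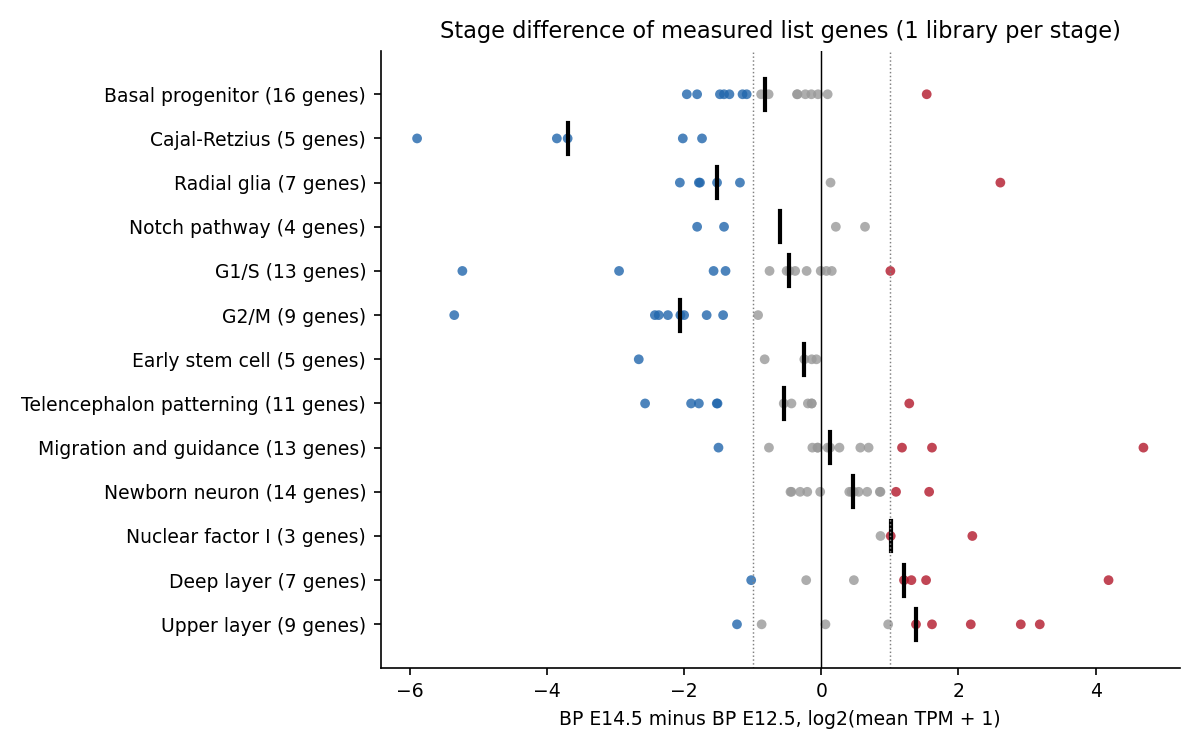
Each point is 1 measured gene of a list, placed by its difference of log2(mean TPM + 1), BP E14.5 minus BP E12.5, with 1 library per stage; black bars are list medians and dotted lines the 2-fold rule, with genes past it in red (higher at E14.5) or blue (lower). Medians run from -3.70 for the 5 Cajal-Retzius genes to 1.38 for the 9 upper layer genes.

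Most measured radial glia genes were also lower at E14.5 in mean TPM. Of 7 measured, 5 were lower and 1 higher, with a median of -1.52. Vim, an intermediate filament of radial glia, averaged 113 TPM at E14.5 and 325 TPM at E12.5 (difference -1.52), and Sox9 averaged 13.4 TPM at E14.5 and 31.8 TPM at E12.5 (difference -1.19). Without the Cajal-Retzius marker cells Vim differed by -0.90, short of the rule. On the mean over cells of log2(TPM + 1), Vim alone of the 5 lower genes stayed past the rule (-1.48). There Sox9 differed by -0.85, Ednrb by -0.38, Ttyh1 by -0.28 and Pax6 by -0.07. The exception was Ptprz1, a receptor phosphatase, at 69.8 TPM in E14.5 cells and 10.6 TPM in E12.5 cells (difference 2.61). Hes5, the reporter gene of the stem cell sort and a Notch target, was at 10 TPM in 1 of 45 cells at E14.5 and 0 of 72 at E12.5, which allows up to 4.17%.

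Dividing cells, taken as those with at least 5 of 20 G2/M genes at 10 TPM, were 7 of 45 at E14.5 (15.6%, exact 95% interval 6.49 to 29.5) and 14 of 72 at E12.5 (19.4%, 11.1 to 30.5). At 50 TPM in place of 10, dividing cells were 4.44% at E14.5 and 16.7% at E12.5. Just inside the rule, with exactly 5 of the genes, were 3 cells at E14.5 and 1 at E12.5. Just outside it, with exactly 4, were 3 cells at E14.5 and 7 at E12.5. Of all cells, 1 of 45 at E14.5 held 10 or more of the genes, with a maximum of 14, and 12 of 72 at E12.5 did, with a maximum of 19. Of the G2/M list, 8 of 9 measured G2/M genes were 2-fold or more lower at E14.5 and 0 higher, with a median of -2.06. Mki67, of cycling nuclei, averaged 10.5 TPM at E14.5 and 61.1 TPM at E12.5 (difference -2.43). It was at 10 TPM in 3 of 45 cells at E14.5 and 13 of 72 at E12.5. Without the dividing cells 4 of the 9 genes were lower and 1 was higher. On the mean over cells of log2(TPM + 1), Cdk1 alone of the 9 stayed past the rule (-1.16). There Mki67 differed by -0.78, Kif11 by -0.35, Cenpf by -0.24 and Ccna2 by 0.14. Of 13 measured G1/S genes, of DNA replication, 4 were lower at E14.5 (Mcm2, Rrm2, Uhrf1 and Rrm1) and 1 was higher, Gins2 (difference 1.01), with a median of -0.47. Other replication genes lay within the size rule, among them Mcm4 (difference -0.21), Mcm5 (-0.47), Mcm7 (-0.51) and the sliding clamp Pcna (0.07). On the mean over cells of log2(TPM + 1), Mcm2 differed by -1.44, Rrm2 and Rrm1 each by -0.84 and Uhrf1 by -0.40. Gins2 differed there by 1.41 and Pcna by 1.45. Of 6 measured D cyclins and Cdk inhibitors and their partners, 1 was higher at E14.5, Cdk6 (difference 1.08), and 1 lower, Ccnd2 (difference -1.44).

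The cells called dividing by this rule held Eomes in 6 of 7 cases at E14.5 and in 12 of 14 at E12.5. Their Eomes ranged from 0.0821 through a median of 202.6 to 1235 TPM at E14.5, and from 0 through a median of 501.5 to 2086 TPM at E12.5. Neurod6 was at 10 TPM in 7 of 7 dividing cells at E14.5, the lowest at 675.0 TPM, and in 12 of 14 at E12.5. Ccnd2, the D cyclin of basal progenitors, was at 10 TPM in 6 of 7 at E14.5 and in 13 of 14 at E12.5. Rrm2, which makes deoxynucleotides for replication, had a median of 11.1 TPM in the dividing cells at E14.5 and 2584 TPM at E12.5, and Mcm2 had medians of 0 at E14.5 and 76.1 TPM at E12.5. Hes1 and Hes5, the Notch targets of radial glia, were listed at 0 in all 21 of them.

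Cajal-Retzius-like cells were sought as those holding at least 3 of 10 markers (Reln, Trp73, Lhx1, Lhx5, Calb2, Nhlh2, Ebf2, Ebf3, Cacna2d2 and Ndnf) at 10 TPM. There were 0 of 45 at E14.5, which allows a share of up to 6.67%, and 15 of 72 at E12.5 (20.8%, exact 95% interval 12.2 to 32.0). Both depend on the level asked for: at 1 TPM they were 15.6% at E14.5 and 50.0% at E12.5, and at 50 TPM 11.1% at E12.5. Just outside the threshold, with exactly 2 markers, were 2 cells at E14.5 and 15 at E12.5; just inside, with exactly 3, were 0 at E14.5 and 4 at E12.5. The same rule found 3 of 58 NSC E11.5 cells, 8 of 81 BP E16.5 cells, 3 of 63 NBN E16.5 cells and at most 2 cells in any other library. The cells with the most markers lay outside the early BP libraries. They were 1 NSC E15.5 cell with 9 or more and 2 NBN E16.5 cells with 8, against 4 BP E12.5 cells with 7. The summed level of the 10 genes ranged from 0.654 to 197.7 TPM per cell at E14.5 and from 0.151 to 4451 TPM at E12.5. Trp73, the p73 gene that defines hem-derived Cajal-Retzius cells, was listed at 0 in every E14.5 cell and reached 10 TPM in 7 of 72 E12.5 cells. Trp73 also reached 10 TPM in 9 of 81 BP E16.5 cells. Ndnf was listed at 0 in all cells of both stages. All 5 measured members of the list were 2-fold or more lower at E14.5, with a median of -3.70. Over all measured genes, 11.6% were that much lower. Reln, Ebf2, Ebf3 and Cacna2d2 averaged under 10 TPM at E14.5, so they passed the filter through E12.5 only. Without the 15 marker cells 4 of the 5 were still 2-fold or more lower, with a median of -1.91. Reln then differed by -1.91, Nhlh2 by -1.02 and Ebf3 by -0.63. These counts describe the genes and were not tested.

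The 15 cells are described in 2 sets, split at 5 markers after their values were seen. In the 8 cells with 5 to 7 markers Reln was at 10 TPM in every cell, from 15.46 to 1203 TPM with a median of 478.4 TPM, Lhx1 in 6 and Trp73 in 5. Neurod6, which the rule did not use, had medians of 37.2 TPM in these 8 cells, 689.6 TPM in the 7 cells with 3 or 4 markers and 1117 TPM in the 57 other cells. It lay between 1.16 and 56.6 TPM in 7 of the 8 and was at 1837 TPM in cell 31. Eomes had medians of 28.8, 347.8 and 122.3 TPM in the same order, and 4 of the 8 cells held it at 10 TPM. Rnd2 had medians of 0, 905.5 and 226.6 TPM, and was at 10 TPM in 2 of the 8, 7 of the 7 and 41 of the 57. The neuronal genes Tubb3 and Dcx were present in all 8, Tubb3 between 2207 and 8240 TPM, and Tbr1, which early-born neurons share, in 7 of 8. Mki67 stayed under 10 TPM in all 8, and was at 10 TPM in 2 of the 7 and 11 of the 57. By the G2/M rule above, 2 of the 15 marker cells were dividing. Emx1, a factor of dorsal cortex, was listed at 0 in all 8, and was at 10 TPM in 11 of the 57 other cells. Sox5 reached 10 TPM in 1 of the 8 and 32 of the 57, and Fezf2 in 1 of the 8 and 19 of the 57. The cell cycle inhibitor Cdkn1a was at 10 TPM in 4 of the 8 cells, 1 of the 7 and 3 of the 57.

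In the 7 cells with 3 or 4 markers Nhlh2 was at 10 TPM in 7 and Ebf2 in 6, against 8 and 5 of the 8 cells with more. Reln was at 10 TPM in 2 of the 7, Trp73 in 1 and Lhx1 in 0; the split by marker number favours lower counts here. Eomes was at 10 TPM in 6 of the 7 and Neurod6 in 7, against 4 and 5 of the 8. Crabp2 was at 10 TPM in 7 of the 7 and 7 of the 8. In the strongest cells the markers did not come as a fixed set: cell 50 held Trp73 at 1202 TPM, Calb2 at 1787 TPM and Ebf1 at 860.8 TPM with Ebf2 at 0.633 TPM, while cell 3 held Ebf2 at 770.4 TPM and Nhlh2 at 588.7 TPM with Calb2 at 0. Cell 70 held the highest Reln, 1203 TPM, and the highest Lhx1, 665.7 TPM. Cell 20 had Reln at 39.6 TPM and Ebf1 at 587.1 TPM.

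**Figure D4:**
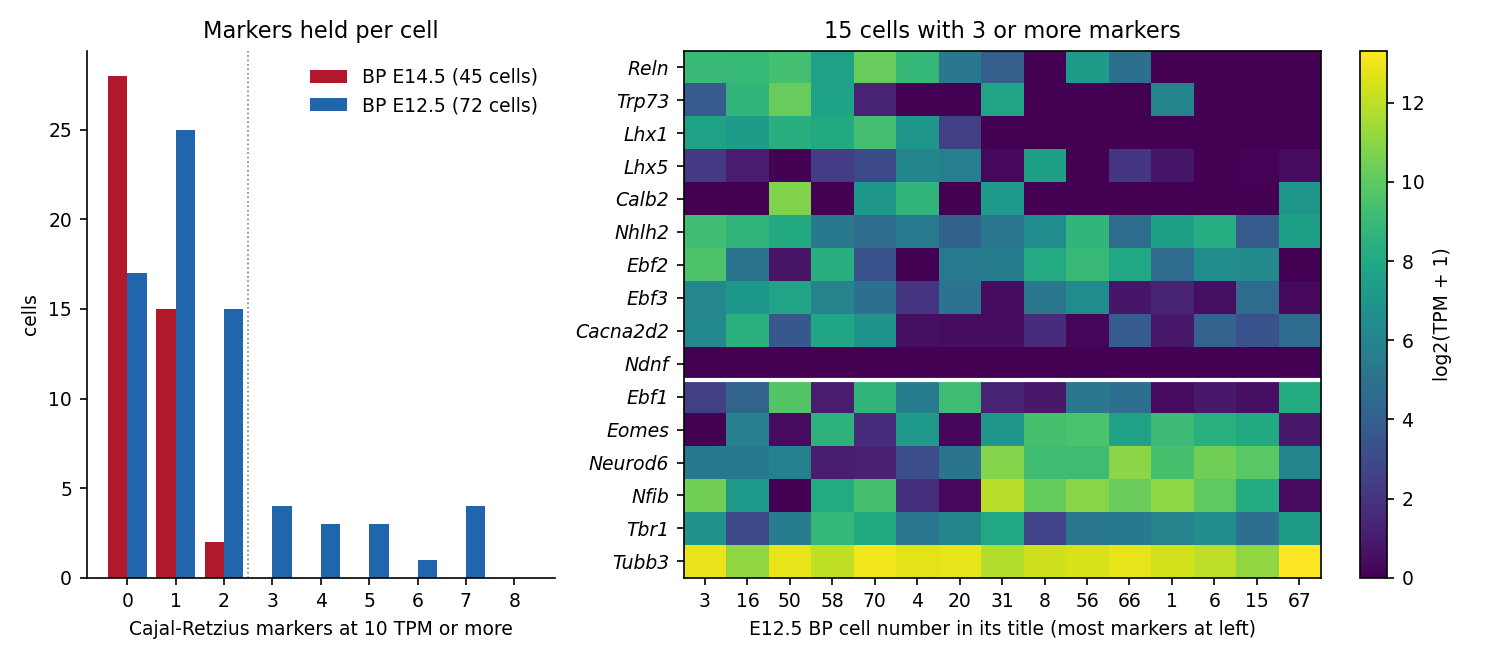
Left, the number of cells (y) by the number of Cajal-Retzius markers they hold at 10 TPM or more (x), for BP E14.5 (red) and BP E12.5 (blue), with the threshold dotted. Right, log2(TPM + 1) in colour for the 10 markers (above the white line) and 6 other genes in the 15 E12.5 cells past it, most markers at left; Neurod6 is between 1.16 and 56.6 TPM in 7 of the 8 leftmost cells and at 1837 TPM in cell 31.

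Genes whose levels ran most like Reln over the 72 E12.5 cells were described by Pearson's r of log2(TPM + 1), among named genes detected in at least 5 cells. The cells share a library and differ in the number of genes detected, so no p is given. Lhx1, a LIM-homeobox factor of Cajal-Retzius cells, led with r = 0.72 and was detected in 7 cells, followed by the potassium channel Kcnc1 (r = 0.65, 29 cells), the synaptic vesicle calcium sensor Syt1 (r = 0.62, 25 cells), the cation channel Trpm3 (r = 0.58, 6 cells) and the proteoglycan Spock2 (r = 0.57, 48 cells). Prrt1, Grpr, Scn3b and Scube3 were also among the first 10, from 0.55 to 0.51. Outside the marker list, the largest differences between the 15 marker cells and the 57 others, a description by the rule's own cells, included Sema6a, a guidance ligand, at 195.8 TPM in marker cells and 18.0 TPM in the rest (9 of 15 and 13 of 57 cells at 10 TPM), and Fblim1 at 114.6 TPM in marker cells and 5.12 TPM in the rest. Toward the other cells they included Ccnd2, at 15.2 TPM in marker cells and 267.1 TPM in the rest, Nell2, at 2.19 TPM in marker cells and 102.5 TPM in the rest, and Meis1, at 2.49 TPM in marker cells and 95.3 TPM in the rest.

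Over the 5 BP stages, the levels took different courses. Mean Ebf2 was 65.9 TPM at E12.5, 0.12 TPM at E14.5 and 0.22 TPM or less in the 3 later BP libraries. Mean Crabp2 was 372, 57.9, 0.37, 0 and 0 TPM at E12.5, E14.5, E16.5, E18.5 and P0. Nhlh1 was 81.0, 36.0, 12.1, 19.1 and 11.6 TPM at the same stages, and Nfix was 96.8, 449, 951, 842 and 1039 TPM. Reln did not follow one direction, at 66.7, 4.20, 50.4, 6.24 and 0.25 TPM, nor did Eomes, at 364, 130, 253, 169 and 119 TPM. E14.5 stood above its neighbours on both sides in Neurod6 (1202, 2558, 1090, 1241 and 1463 TPM), Bcl11b (51.2, 119, 31.1, 13.1 and 12.7 TPM) and Sox5 (87.9, 255, 44.8, 28.5 and 52.7 TPM). Each value is 1 library, with no spread between animals.

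**Figure D5:**
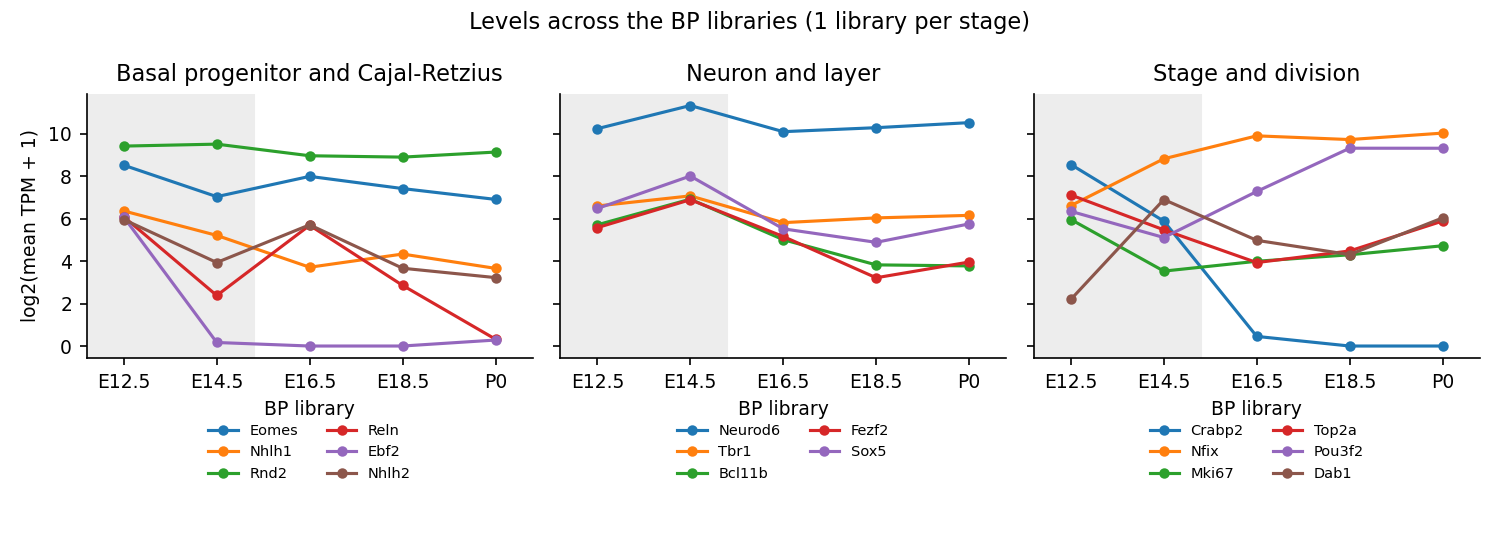
Points are the mean level of 1 BP library per stage as log2(mean TPM + 1), from E12.5 to P0 on the x axis, with the 2 early libraries shaded, for progenitor and Cajal-Retzius genes (left), neuron and layer genes (middle), and stage and division genes (right). Ebf2 and Crabp2 are high at the early end, Nfix and Pou3f2 at the late end, and Neurod6, Bcl11b and Sox5 peak at E14.5.

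The 2 early BP libraries were compared with the 3 late ones (E16.5, E18.5 and P0) by limma over all 17 libraries, 1 value each. Of 14093 genes tested 0 were called at an adjusted p of 0.05 in either direction (0%). The smallest Benjamini-Hochberg adjusted p was 0.293, and 385 genes had an unadjusted p under 0.05. Values of list genes are therefore descriptions with their standard errors. Crabp2 differed by 7.06 ± 2.23 (log2, SE), Vim by 2.75 ± 0.83, Ebf2 by 3.02 ± 1.16 and Nhlh1 by 1.89 ± 0.83 in early over late BP. Cdk6, a partner of the D cyclins, differed by -3.05 ± 0.85, Pou3f2 by -2.91 ± 0.92 and Sema3c, a secreted semaphorin, by -3.76 ± 1.54. The activity genes Fos and Egr1 differed by -2.77 ± 0.75 and -2.58 ± 1.07; dissociation can raise these genes, and its part was not tested. Each of these list genes had a limma adjusted p of 1. Eomes differed by 0.34 ± 1.23 and Reln by 1.28 ± 1.74, and both turned negative without the E12.5 library, at -0.40 and -0.57. By list, deep layer genes were positive in 8 of 9 (median 1.86), early stem cell genes in 9 of 10 (median 1.65) and upper layer genes negative in 7 of 10 (median -1.44), against a median of -0.07 over all genes tested.

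Against the 3 NSC libraries around them in time (E11.5, E13.5 and E15.5), limma again called 0 of 14093 genes (0%), with 402 at an unadjusted p under 0.05 and a smallest adjusted p of 1. All 16 radial glia genes were lower in value in early BP, with a median of -2.12, against 0.03 over all genes: Hes1 differed by -3.64 ± 1.24, Sox2, a stem cell factor, by -2.28 ± 0.81, Sox9 by -2.09 ± 0.63 and the glutamate transporter Slc1a3 by -2.98 ± 1.17. The receptor Notch2 differed by -2.90 ± 0.91. Of 18 basal progenitor genes, 12 were positive and 6 negative (median 0.25), with Nhlh1 at 2.26 ± 0.83, Rnd2 at 1.38 ± 0.60 and Neurog2 at -0.063 ± 1.14. All 14 newborn neuron genes were positive (median 1.08), while 18 of 20 G2/M genes were negative (median -0.66). Interneuron genes were negative in all 8, among them Gad1 at -2.98 ± 1.06, and erythroid genes in 4 of 5 (median -2.64). Cells with 3 or more erythroid markers at 10 TPM were 34 of 58 at NSC E11.5, 2 of 66 at E13.5 and 0 of 86 at E15.5. For interneuron markers they were 12 of 58, 2 of 66 and 10 of 86, against 2 of 72 at BP E12.5 and 0 of 45 at BP E14.5. The part of such cells in the other values was not tested. Eomes itself, whose reporter set the BP sort, was at 10 TPM in 19 of 58, 32 of 66 and 30 of 86 cells of the NSC E11.5, E13.5 and E15.5 libraries.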

How the data were processed

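Single-cell libraries of the 17 stage and cell type groups were analysed. The deposited values were TPM per gene and cell; per the submitters' processing notes kallisto 0.43.0 and the builds GRCm38.p2 and mm10 were used. A few near-empty cells with whole-number columns were recorded as a score, per the file values as deposited, and none was an early basal progenitor. Depth is unknown, since TPM keeps none. The cDNA kit does not mark strand, and 69 of 258 named genes (Eomes, Reln, Rnd2, Ebf2, Trp73 and Nfix among them) share exon bases with an antisense gene in GENCODE, so their reads cannot be told apart. Of 23078 gene IDs, 22361 matched that annotation (Ccn2 and Cxcr7 are listed there as Ctgf and Ackr3; Dlx6os1 was not analysed here).

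Cells with fewer than 500 genes at 1 TPM were left out, 19 in the series and none of the early basal progenitors. Levels are means over cells, and differences are of log2(mean TPM + 1), which understates the change of low genes. Stage differences have no test, with 2-fold (1 log2 unit) as the size rule. Shares have exact Clopper-Pearson 95% intervals, and a count of 0 an approximate upper limit of 3 counts. Both cover counting error only. The upper end of the exact interval was wider, 7.87% for 0 of 45 cells and 4.99% for 0 of 72. Early against late BP and against NSC used limma 3.58.1 in R 4.3.3 with Benjamini-Hochberg adjustment, on genes at 1 TPM in at least 4 of 17 libraries, and was tested on simulated data. Nothing in the labels says that the libraries came from separate animals, so p-values measure only the spread between libraries of different stages. No label or file header names a capture or sequencing batch.

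The members, lists and tests were chosen with earlier results of these data known. Named genes are the 12 largest stage differences each way among measured genes with a gene name, list members, the 12 most different in the Cajal-Retzius marker cells and the 10 most like Reln; the limit of 5 cells for the last was added after its values were seen. Clustering of the 117 cells into 5 groups gave no cluster with 3 listed markers in the lead, and none was named. The Cajal-Retzius marker cells formed no cluster of their own: 2, 4 and 9 of them lay in clusters of 9, 22 and 31 cells. Promoters are RefSeq's, GRCm38.p6, of a later patch than the files' build. Python 3.11.15 with SciPy 1.17.1 was used. Some genes of the lists are not reported here by name; counts and medians given for a list include them.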

Additional observations from a re-analysis of the deposited data

How the results depend on the processing

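Of 80 named genes 2-fold or more different between E14.5 and E12.5, 68 stayed past the rule with a pseudocount of 10, 73 without Cajal-Retzius marker cells, 71 without dividing cells, 49 on the mean over cells of log2 (where the median of all genes moved to 0.27) and, in 2 alternatives chosen after seeing the data, 76 in cells with a Y-linked transcript alone and 55 in Eomes-positive cells. The named genes were partly picked for size, so the share over all genes is given beside them. Of all 1742 genes past the rule, 57.2% stayed past it on the same side with a pseudocount of 10. The share was 84.7% without Cajal-Retzius marker cells, 80.9% without dividing cells and 29.9% on the mean of log2. It was 70.9% in cells with a Y-linked transcript alone and 57.3% in Eomes-positive cells. The counts higher and lower were 847 and 895. They were 489 and 508 with a pseudocount of 10, 2026 and 2507 with no filter, and 211 and 196 at 2 log2 units. The lower count was 192 on the mean of log2 and 1533 in Eomes-positive cells. The sign turned for Nr4a2 (0.44), Rrm2 (0.093), Cenpf (1.23), Kif11 (0.016) and Birc5 (0.30) without dividing cells, for Foxp2 (0.0026) on the mean of log2, and for Rorb (-0.18) and Robo1 (-0.53) in Eomes-positive cells; the cause was not tested. Cajal-Retzius marker cells at 1 TPM were 15.6% at E14.5 and 50.0% at E12.5, and at 50 TPM 11.1% at E12.5. Dividing cells at 1 TPM were 71.1% and 66.7%, and at 50 TPM 4.44% and 16.7%. Eomes at 1 TPM was in 55.6% and 79.2%. The limma calls of 0 became, for early over late BP, 1 higher with a pseudocount of 10, 8 higher and 3 lower with no filter, and 10 higher and 2 lower on the mean of log2; for early BP over NSC, 10 and 2 with no filter and 3 higher on the mean of log2. Leaving out each of the 5 libraries of a contrast in turn left its counts at 0. There, over late BP, Eomes ranged from -0.40 (without BP E12.5) to 1.08 and Reln from -0.57 (without BP E12.5; -0.040 without P0) to 3.13 (both without BP E14.5). Over NSC, Eomes ranged from -0.57 (without BP E12.5; -0.11 without NSC E11.5) to 0.91, Reln from -0.84 (without BP E12.5; -0.37 without NSC E11.5) to 2.87 and Neurog2 from -0.73 (without BP E12.5) to 0.61 (without BP E14.5; 0.25 without NSC E13.5). Neurog2 over NSC was also positive on the mean of log2 (0.17) and without Cajal-Retzius marker cells (0.061). On the mean of log2, Nhlh1 passed the limma threshold over late BP (2.19) and NSC (2.20). No paired analysis was possible because the replicate numbers number cells within a library, and each library gives 1 value.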
